A study of Gallus gallus with 6 samples.

Results

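The miR-106-363 cluster is a group of miRNA hairpins that sit side by side in the chicken genome, and its mature products were followed here in the livers of hens before and at peak laying. The members were chosen by name, as the rows of the deposited table for the 5p and 3p arms of miR-106, miR-18b, miR-20b and miR-363. This gave 6 of 565 listed mature miRNAs, namely both arms of miR-106, miR-18b and miR-20b, whereas miR-363 was not analysed here. Small RNA was sequenced from the livers of female Lushi green-shell chickens, 3 of them aged 30 weeks (L30, egg-laying) and 3 aged 20 weeks (L20, pre-laying, labelled juvenile), with 1 library per hen. Age and laying cannot be told apart in this design.

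MiRNA clusters of this kind are transcribed as a single primary RNA, from which Drosha cuts each hairpin and Dicer then releases a duplex. The strand from the left side of the hairpin is the 5p arm and that from the right side is the 3p arm, and usually the strand loaded into Argonaute is kept while its partner is degraded. The cluster is a paralogue of miR-17-92, a target of MYC in mammals that promotes proliferation and restrains cell cycle inhibitors such as CDKN1A and pro-apoptotic factors such as BCL2L11. MiR-106-5p and miR-20b-5p carry the same seed, the bases that pair with targets, as miR-17-5p and miR-20a-5p, and miR-18b-5p is the counterpart of miR-18a-5p. The RefSeq gene table (assembly GRCg7b), used for names and neighbours only, places the 6 hairpins MIR106A, MIR18B, MIR20B, MIR19B-2, MIR92-2 and MIR363 next to each other on chromosome 4 with no other miRNA gene between them. The 6 hairpins of miR-17-92 lie on chromosome 1. Mature miR-19b and miR-92 are named for hairpins of both loci and were therefore not counted as members.

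The reads counted on the listed miRNAs ranged from 3864984 to 8804077 in L30 and from 7135289 to 14822854 in L20. They made up 18.2% to 45.0% of the clean reads in L30 and 49.1% to 58.0% in L20, with no overlap between the ages. Levels are given as TPM, the reads of a miRNA per 1000000 clean reads of its library. Every TPM also moves with this share, and the age differences of the members and their paralogues are therefore given under another scaling too, in which the library size is the sum of all counted reads (summed counts). MiR-122-5p, the miRNA that defines hepatocytes, ranked 4 of 565 by mean TPM, with 12705 to 37721 TPM in L30 and 49844 to 69839 TPM in L20. Across the 6 libraries, 3 reads of a miRNA equal from 0.113 to 0.223 TPM. As PCR products carry no molecular tags here, this floor allows for counting error alone.

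The 6 products together were a minor part of the liver miRNAs. Their summed level was 42.9, 23.9 and 12.9 TPM in L30-1, L30-2 and L30-3, against 99.1, 107.6 and 81.8 TPM in L20-1, L20-2 and L20-3. Every L30 library was below every L20 library. Relative to the counted miRNA reads alone, the sum was 95.4, 72.1 and 71.2 reads per 1000000 in L30 and 170.9, 192.7 and 166.8 reads per 1000000 in L20, again without overlap. In TPM, 46.2% of the 236 miRNAs tested also had every L30 library below every L20 library. Such a share was not computed for the counted miRNA reads. In whole liver, fewer cells of a type and less RNA per cell cannot be told apart.

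The 5p products miR-106-5p, miR-20b-5p and miR-18b-5p, fell in L30, whereas neither tested 3p product passed the test. The test was the quasi-likelihood F-test of edgeR, adjusted by Benjamini-Hochberg over all 236 miRNAs that passed the filter on low counts. With a threshold of 0.05 on the adjusted p, 3 of the 5 members tested were lower in L30, where 24.6% of the 236 were called lower, and 0 members were higher, also before adjustment and with DESeq2 or limma. Of all 236, edgeR called 0 higher (4 before adjustment at 0.05), DESeq2 1 and limma 0. With the replicate number as a block, 37.3% were called lower and the same 3 members were called. The median log2 fold change was −1.82 over the 5 members tested and −0.86 over all 236. Under the scaling to summed counts these medians were −1.13 and −0.10, the same 3 members were called lower, and 16.1% of all tested miRNAs were called lower and 12.3% higher. Under TMM factors the same members were called, with 23.3% of all called lower and 9.32% higher. Under upper quartile factors 2 members were called, with 10.6% of all called lower and 17.4% higher. MiR-18b-3p, with at most 5 reads in a library, did not pass the filter.

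MiR-106-5p, from the hairpin at one end of the cluster and a near copy of miR-17-5p, had 11.3, 7.21 and 2.73 TPM in L30-1, L30-2 and L30-3, against 34.5, 39.4 and 28.0 TPM in L20-1, L20-2 and L20-3. The highest L30 library was well below the lowest L20 library. The means were 7.08 ± 4.29 TPM in L30 and 33.97 ± 5.72 TPM in L20 (SD, n = 3 each). On the log2 scale the fold change was −2.26 with a standard error of 0.61 (edgeR adjusted p = 0.00279), which ranked 11 of 236 from the lowest. Scaled to summed counts, it was −1.59 (edgeR adjusted p = 0.00512).

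MiR-20b-5p, which shares its seed with miR-106-5p, was the most abundant member. It had 15.7, 7.66 and 5.03 TPM in the L30 libraries, against 39.6, 48.9 and 33.1 TPM in the L20 libraries, and the ages did not overlap. The means were 9.46 ± 5.56 TPM in L30 and 40.5 ± 7.97 TPM in L20 (SD, n = 3 each). Its log2 fold change of −2.10 had a standard error of 0.60 (edgeR adjusted p = 0.0047), and it was −1.38 when scaled to summed counts (edgeR adjusted p = 0.00603).

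MiR-18b-5p, which has a seed of its own within the cluster, was the least abundant of the 3 products from 5p arms. It had 3.22, 2.75 and 0.893 TPM in the L30 libraries, against 8.92, 7.91 and 7.43 TPM in the L20 libraries. L30-3, with 19 reads, was the lowest library, and the L20 libraries lay close together. The means were 2.29 ± 1.23 TPM in L30 and 8.08 ± 0.76 TPM in L20 (SD, n = 3 each). The log2 fold change of −1.82 had a standard error of 0.63 (edgeR adjusted p = 0.0213). Scaled to summed counts, it was −1.13 (edgeR adjusted p = 0.0263). Under upper quartile factors the value was −0.91 and the call was lost (edgeR adjusted p = 0.0563).

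Neither tested 3p product was called in the main fit. This alone does not show that the arms differ, and the arms were set against each other only in the ratios further below. MiR-106-3p, the partner strand of miR-106-5p, had 12.1, 5.65 and 3.85 TPM in the L30 libraries, against 15.4, 10.4 and 12.3 TPM in the L20 libraries. L30-1 lay within the range of L20, so the ages overlapped. Its log2 fold change of −0.82 had a standard error of 0.60 (edgeR adjusted p = 0.3) and was close to the median of all tested miRNAs, and it was −0.11 when scaled to summed counts (edgeR adjusted p = 0.8). Under upper quartile factors it was above 0, at 0.12 (edgeR adjusted p = 0.751), where the median of all tested miRNAs was also 0.12.

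MiR-20b-3p had 0.409, 0.372 and 0.282 TPM in the L30 libraries, against 0.542, 0.791 and 0.963 TPM in the L20 libraries. These levels correspond to 8, 5 and 6 reads in L30 and to 11, 21 and 14 reads in L20. All L30 libraries were below all L20 libraries, but the log2 fold change of −1.10 (standard error 0.71) did not pass the test (edgeR adjusted p = 0.241), and it was −0.28 when scaled to summed counts (edgeR adjusted p = 0.69). MiR-18b-3p was read 5, 4 and 3 times in the L30 libraries and 3, 3 and 1 times in the L20 libraries, or 12 reads against 7 in all. These counts lie near the floor of 3 reads, and in an edgeR fit without the filter it was not called. Relative to the counted miRNA reads, they equal 0.568, 0.896 and 0.776 reads per 1000000 in L30 and 0.255, 0.202 and 0.140 in L20, so that on this scale every L30 library was above every L20 library. The share of all miRNAs placed like this was not computed on this scale. Of the 5 members tested, 4 had every L30 library below every L20 library in TPM, as had 46.2% of all tested miRNAs, and 0 had every L30 library above, against 2.54% of all. MiR-20b-3p, among the 4, passed the filter on low counts through its L20 libraries alone. A miRNA that enters in this way cannot overlap, so its separation is not support for an age difference. The 46.2% was taken over all tested miRNAs, with any others that entered in this way.

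**Figure D1:**
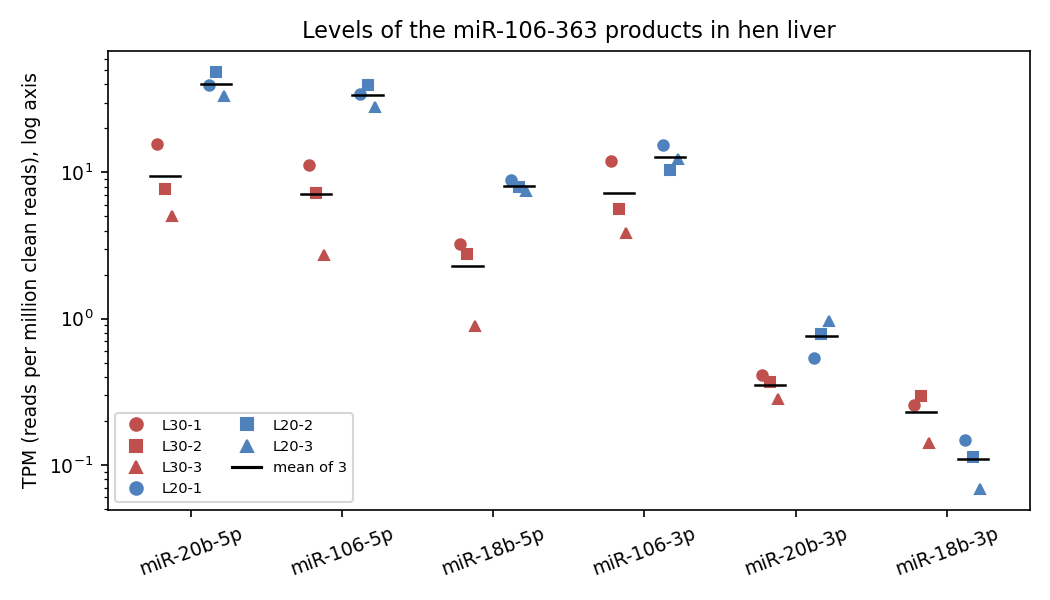
Level of each of the 6 products in each library, in TPM on a log axis, with L30 in red to the left of L20 in blue and the mean of 3 libraries as a black bar. The 3 main 5p products show no overlap between the ages, miR-106-3p overlaps, and miR-18b-3p rests on at most 5 reads in a library. MiR-20b-3p shows no overlap either, but it passed the filter on low counts through its L20 libraries alone.

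The calls of the 5p products depended on single libraries when the scale was clean reads, although each stayed lower in L30 in all 6 fits that left out 1 library. The log2 fold change then ranged from −2.78 to −1.87 for miR-106-5p, from −2.68 to −1.79 for miR-20b-5p and from −2.16 to −1.43 for miR-18b-5p. MiR-106-5p lost its call without L20-2 (edgeR adjusted p = 0.0632) and without L30-2 (edgeR adjusted p = 0.0747). MiR-20b-5p lost it without L20-1, L20-2 or L30-2 (edgeR adjusted p = 0.0538, 0.0901 and 0.0913). MiR-18b-5p lost it without L20-1, L20-2, L20-3 or L30-2 (edgeR adjusted p = 0.104, 0.111, 0.096 and 0.0941). Without L20-2 or L30-2 edgeR called 0 members, while 3 were under an unadjusted p of 0.05 in each fit. Of all 236, 55 and 66 were under this unadjusted p in these fits. The number of all tested miRNAs called fell to 9 and 6 in these fits, and to 18 without L20-1 and 33 without L20-3. Without L30-1, miR-106-3p was also called lower, at −1.42 on the log2 scale (edgeR adjusted p = 0.0438). In that fit 43.2% of all 236 were called lower, and the median log2 fold change of all was −1.20.

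With summed counts as library size, an alternative chosen after seeing the data for the fits that leave out a library, miR-106-5p and miR-20b-5p were called lower in all 6 of them. Their adjusted p reached 0.0261 and 0.0311 at most. In these fits, from 8.90% to 14.4% of all 236 tested miRNAs were called lower, and from 11 to 33 of them were called higher. MiR-18b-5p was called in 2 of these 6 fits. Its adjusted p was 0.0541, 0.0679 and 0.0825 in the fits that lacked L20-1, L20-2 or L20-3 in turn, and 0.0658 without L30-1.

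**Figure D2:**
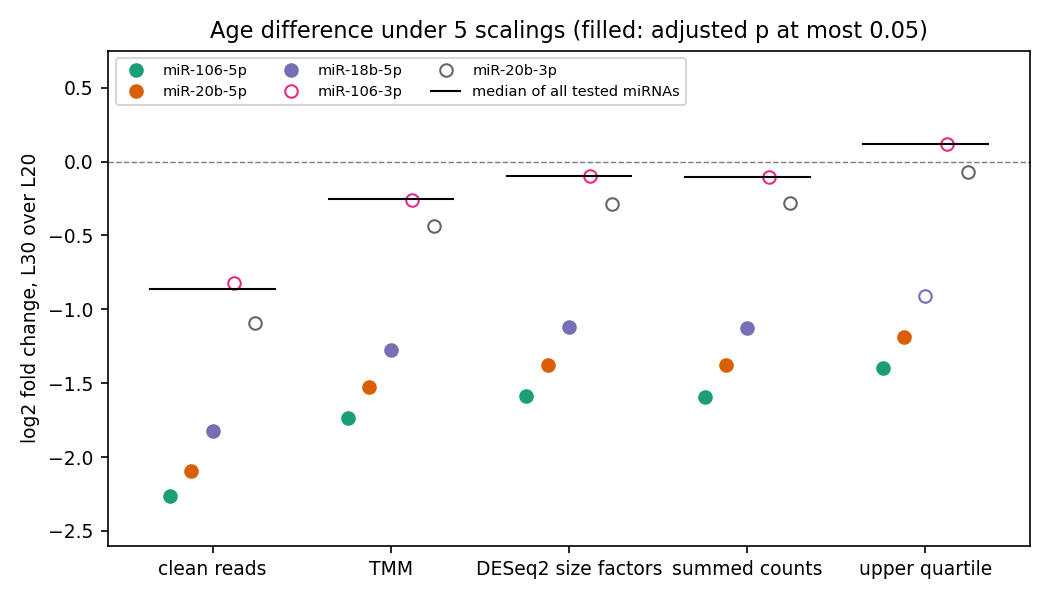
Log2 fold change of L30 over L20 for the 5 members tested, in edgeR fits under 5 scalings, with filled points at an adjusted p of at most 0.05 and a black line at the median of all 236 tested miRNAs. MiR-106-5p and miR-20b-5p are below the median and filled under each scaling, miR-18b-5p is open under upper quartile factors at −0.91, and miR-106-3p lies close to the median line under each, above 0 under upper quartile factors.

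The arms were then set against each other within each library, since a ratio of reads from the same library does not depend on the scaling. MiR-106 had the most even arms of the 3 hairpins followed here. For every read of miR-106-3p there were 0.936, 1.28 and 0.707 reads of miR-106-5p in L30-1, L30-2 and L30-3, against 2.25, 3.78 and 2.27 in L20-1, L20-2 and L20-3. The 5p arm was thus the more abundant one in 1 of the 3 L30 libraries and in all 3 L20 libraries, and the ages did not overlap. The share of all tested hairpins without overlap was not computed, so this separation is not shown to be particular to miR-106. The mean log2 ratio of 5p to 3p reads was −0.08 ± 0.42 in L30 and 1.42 ± 0.43 in L20 (SD, n = 3 each). The difference of −1.50 (standard error 0.28) passed limma's test over the 71 hairpins with a mean of at least 5 reads in each arm (adjusted p = 0.00188). Of these hairpins, 18.3% were called with a lower and 21.1% with a higher 5p share in L30, and the median difference was 0.09. The difference for miR-106 was called in all 6 fits that left out 1 library, at −1.72 to −1.25.

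MiR-20b was read almost only from its 5p arm. For every read of miR-20b-3p there were 38.4, 20.6 and 17.8 reads of miR-20b-5p in the L30 libraries, against 73.0, 61.9 and 34.4 in the L20 libraries. L30-1 was above L20-3, so the ages overlapped. The mean log2 ratio was 4.49 ± 0.61 in L30 and 5.70 ± 0.57 in L20 (SD, n = 3 each), and the difference of −1.21 (standard error 0.58) did not pass limma's test (adjusted p = 0.12). It rested on 5 to 21 reads of the 3p arm per library.

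For miR-18b, the log2 ratio of 5p to 3p reads was 3.53, 3.06 and 2.48 in the L30 libraries, against 5.70, 5.91 and 6.18 in the L20 libraries, without overlap. Here too, the share of all hairpins without overlap was not computed. With at most 5 reads of its 3p arm in a library, it did not enter the test with a mean of at least 5 reads per arm. When a mean of 1 read per arm was enough, its difference of −2.91 was called among 102 hairpins (limma adjusted p = 0.0106), of which 12.7% were called lower. In each of the 3 hairpins followed here the mean log2 ratio of 5p to 3p reads was thus lower in L30, and for 1 of the 2 tested it passed the test.

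**Figure D3:**
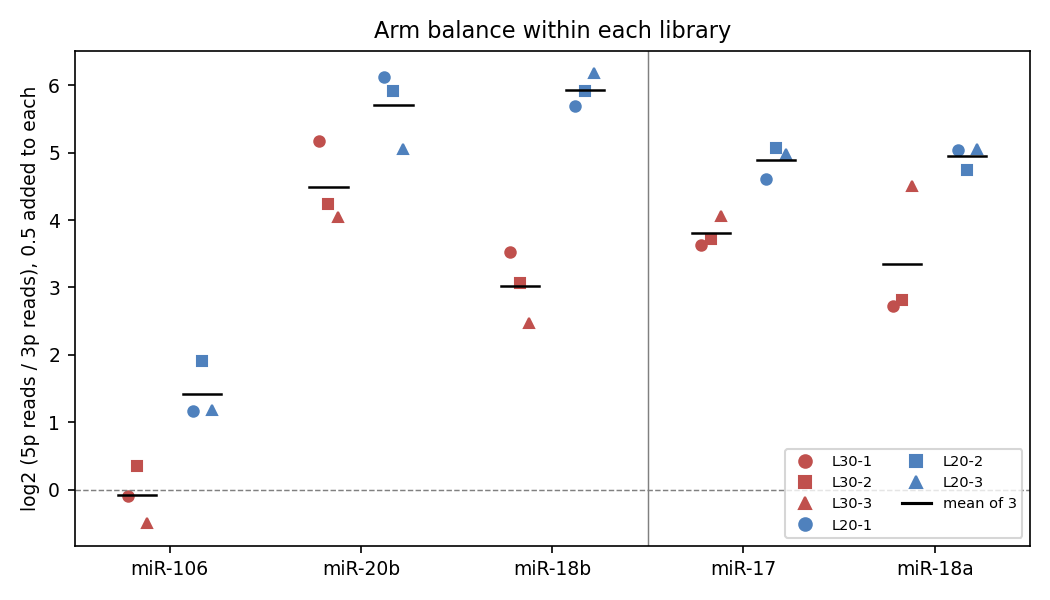
Log2 ratio of 5p to 3p reads (0.5 added to each) within each library, with L30 in red to the left of L20 in blue, for the 3 hairpins followed here left of the grey line and for miR-17 and miR-18a right of it. MiR-106 lies around 0 in L30, at a mean of −0.08, and near 1.42 in L20, while miR-18b rests on 1 to 5 reads of its 3p arm in a library. MiR-17 and miR-18a are the 2 called among 5 paralogue hairpins tested, and the others are not shown.

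The order of the members differed between the ages at a single place. In L20, the mean level fell in the order miR-20b-5p, miR-106-5p, miR-106-3p, miR-18b-5p, miR-20b-3p and miR-18b-3p. In L30, miR-106-3p, at 7.19 ± 4.32 TPM, came just above miR-106-5p, at 7.08 ± 4.29 TPM (SD, n = 3 each), and these neighbours overlapped. MiR-18b-5p did not overlap with miR-106-3p at either age, but in L30 it overlapped with miR-106-5p. MiR-20b-5p and miR-106-5p overlapped in range at both ages, although miR-20b-5p had more reads than miR-106-5p in 6 of 6 libraries. MiR-106-3p had more reads than miR-18b-5p in 6 of 6 libraries, as did miR-18b-5p compared with miR-20b-3p.

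The other 5p products were then set against miR-20b-5p within each library. The exact permutation test used for these ratios cannot give a p below 0.1 with 3 libraries against 3, so none of the 6 ratios tested could pass a threshold of 0.05. There were 72.0, 94.2 and 54.2 reads of miR-106-5p per 100 reads of miR-20b-5p in the L30 libraries, against 87.3, 80.5 and 84.6 in the L20 libraries. The L30 libraries were spread around the narrow L20 range. The difference in mean log2 ratio was −0.23 (exact two-sided permutation test, p = 0.4, adjusted p = 0.6 over the 6 ratios tested). For miR-18b-5p, there were 20.5, 35.9 and 17.8 reads per 100 reads of miR-20b-5p in L30 and 22.5, 16.2 and 22.5 in L20, a difference of 0.23 on the log2 scale (exact two-sided permutation test, p = 0.7, adjusted p = 0.84). L30-2 was high, and without it the difference was −0.08.

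The cluster was next compared with its paralogue miR-17-92, whose products are near copies of its own. Since the authors' alignment tolerated a few mismatches and altered ends, a read of one near copy may have been assigned to the other. Its part in these ratios was not tested. Within each library there were 5.71, 5.34 and 5.0 reads of miR-106-5p per 100 reads of miR-17-5p in L30-1, L30-2 and L30-3, against 8.32, 8.42 and 7.74 in L20-1, L20-2 and L20-3. Every L30 library was below every L20 library, with a difference of −0.61 on the log2 scale. The exact two-sided permutation test gave p = 0.1, the limit of this design (adjusted p = 0.3 over the 6 ratios).

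MiR-20b-5p was set against miR-20a-5p in the same way. There were 9.91, 7.34 and 10.7 reads of miR-20b-5p per 100 reads of miR-20a-5p in the L30 libraries, against 8.83, 9.38 and 8.51 in the L20 libraries. The L30 libraries lay on both sides of the L20 range, and the difference was 0.05 on the log2 scale (exact two-sided permutation test, p = 0.9, adjusted p = 0.9). For miR-18b-5p against miR-18a-5p the numbers were 23.5, 30.1 and 18.6 per 100 in L30 and 31.5, 29.6 and 26.0 per 100 in L20, with overlap, and the difference was −0.29 (exact two-sided permutation test, p = 0.3, adjusted p = 0.6). For the 3 main 5p products together, there were 8.17, 7.09 and 8.15 reads per 100 reads of the 3 paralogues in L30, against 9.32, 9.47 and 8.80 in L20. The groups did not overlap, and the difference was −0.24 (exact two-sided permutation test, p = 0.1, adjusted p = 0.3).

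**Figure D4:**
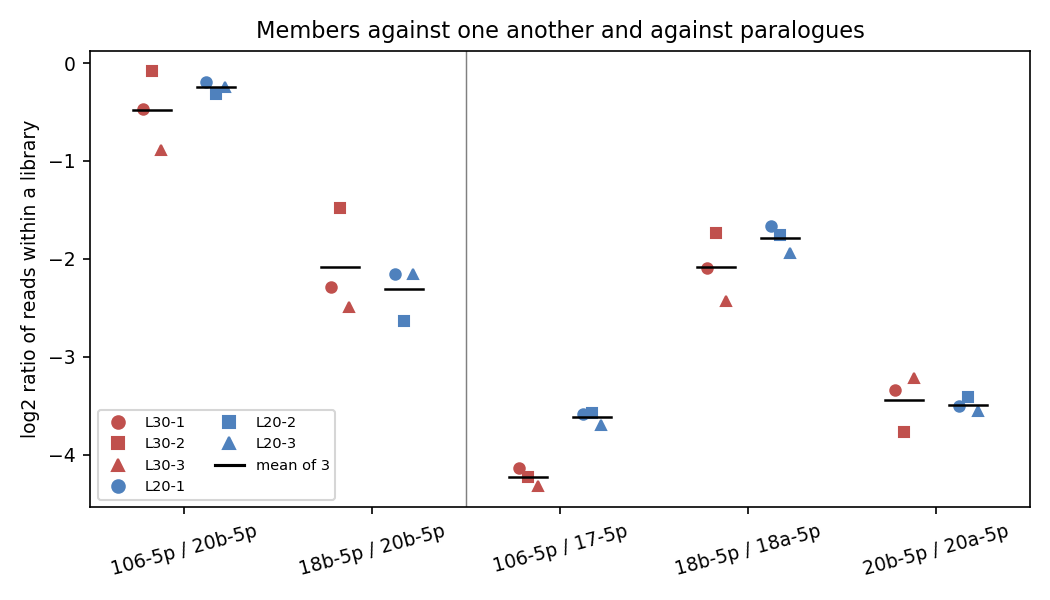
Log2 ratio of reads within each library, with L30 in red to the left of L20 in blue and the mean of 3 libraries as a black bar, for members against miR-20b-5p left of the grey line and for members against their paralogue in miR-17-92 right of it. The age groups are apart for miR-106-5p against miR-17-5p, at means of −4.23 in L30 and −3.62 in L20, and overlap in the other ratios shown.

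The partner strands were compared with their paralogues as a description. There were 236, 76 and 82 reads of miR-106-3p beside 312, 137 and 69 reads of miR-17-3p in the L30 libraries, and 312, 277 and 179 reads beside 346, 368 and 167 in the L20 libraries. This is a ratio of 0.756, 0.555 and 1.19 in L30 and of 0.902, 0.753 and 1.07 in L20. For miR-18b-3p to miR-18a-3p the ratio was 0.125, 0.235 and 0.75 in L30 and 0.176, 0.115 and 0.0833 in L20, with 1 to 5 reads of miR-18b-3p in a library. These pairs were set side by side after their values were seen and were not tested. For every read of miR-17-3p there were thus from 0.555 to 1.19 reads of miR-106-3p, whereas miR-106-5p was counted at a small fraction of miR-17-5p in every library.

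Of the 12 arm products of miR-17-92 listed for comparison, 11 were present in the table and 9 passed the filter. Those of miR-19b and miR-92 are named for hairpins of both loci, so their calls cannot be assigned to miR-17-92 alone. At the same threshold edgeR called 5 of these 9 lower in L30 and 0 higher, again with 24.6% of all tested miRNAs called lower. DESeq2 and limma gave the same counts, with 31.4% and 33.1% of all called lower. Without 1 library, edgeR called 2 of them without L20-1, 0 without L20-2, 3 without L20-3 and 0 without L30-2, while 5 had an unadjusted p of at most 0.05 in each of these 4 fits. Of all 236, edgeR called 18, 9, 33 and 6 in these fits, and 65, 55, 74 and 66 had such an unadjusted p. On summed counts the same 5 were lower and 2 were higher, where 16.1% of all were called lower and 12.3% higher. These 7 calls fell to 4 without L20-2 and to 2 without L20-3, where 33 and 32 of all 236 were called. The 5 lower ones were miR-17-5p, miR-18a-5p, miR-20a-5p, miR-19a-3p and miR-19b-3p, with edgeR log2 fold changes of −1.68, −1.60, −2.13, −1.92 and −2.06 on clean reads and of −0.998, −0.87, −1.43, −1.17 and −1.28 on summed counts. MiR-92-3p had a log2 fold change of 0.18 on clean reads (edgeR adjusted p = 0.794) and was called higher on summed counts, at 0.98 (edgeR adjusted p = 0.01). MiR-92-5p had 0.85 on clean reads (edgeR adjusted p = 0.308) and was also called higher on summed counts, at 1.69 (edgeR adjusted p = 0.0491). The partner strands miR-17-3p and miR-18a-3p had log2 fold changes of −0.53 and 0.39 on clean reads (edgeR adjusted p = 0.521 and 0.662) and of 0.12 and 0.97 on summed counts (edgeR adjusted p = 0.8 and 0.193), so that the sign of miR-17-3p depended on the scaling and neither passed the test. Of the 5 hairpins of this list tested for arm balance, limma called 2 with a lower log2 ratio of 5p to 3p reads in L30. Of all 71 hairpins tested, 18.3% were called lower. The differences were −1.08 for miR-17 (standard error 0.22, limma adjusted p = 0.00329) and −1.59 for miR-18a (standard error 0.57, limma adjusted p = 0.043). Those of miR-19a, miR-19b and miR-92 were 0.11, −0.18 and 0.84 and did not pass (limma adjusted p = 0.916, 0.899 and 0.174). The call for miR-17 held in all 6 fits that left out 1 library, whereas that for miR-18a was lost without L20-1, L20-3, L30-1 or L30-2 (limma adjusted p = 0.0626, 0.14, 0.163 and 0.139).

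To find the miRNAs whose pattern was most like that of miR-20b-5p, the SD of the log2 ratio of reads to miR-20b-5p over the 6 libraries was computed for each of the other 235 tested miRNAs. It ranged from 0.158 to 3.61 with a median of 0.862. The 5 smallest values among miRNAs not counted as members belonged to miR-10a-3p (0.158), miR-16c-5p (0.188), miR-20a-5p (0.19), miR-19b-3p (0.269) and miR-1a-3p (0.286). Among the members, miR-106-5p had 0.283, miR-18b-5p had 0.400, miR-106-3p had 0.761 and miR-20b-3p had 0.847. The 3p arms thus varied against miR-20b-5p nearly as much as the median miRNA did. This SD includes counting error, which was not separated, and miR-20b-3p had only 5 to 21 reads in a library.

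In TPM, the summed levels of blood and vessel cell markers were also lower in L30, as was the hepatocyte sum. The counts of markers called lower stand beside 24.6% of all tested miRNAs, or 16.1% on summed counts. The 3 erythroid products of miR-451 and miR-144 summed to between 288 and 1197 TPM in L30 and between 1597 and 3182 TPM in L20, and 2 of the 3 were called lower. The 4 leukocyte products of miR-142, miR-155 and miR-223 summed to between 943 and 3664 TPM in L30 and between 4627 and 6736 TPM in L20, and 3 of the 4 were called lower. Both endothelial products of miR-126 were called lower, with sums between 6458 and 14792 TPM in L30 and between 28732 and 42751 TPM in L20. Relative to the counted miRNA reads, the sums of these 3 lists were also lower in L30 without overlap, and on this scale 1 erythroid, 2 leukocyte and 2 endothelial products were called lower. The share of all tested miRNAs without overlap on this scale was not computed. Of the 2 hepatocyte products of miR-122, miR-122-3p was called lower (edgeR adjusted p = 0.0195) and miR-122-5p was not (edgeR adjusted p = 0.0622). Their sums were 12896 to 38273 TPM in L30 and 50943 to 71219.8 TPM in L20. Of the 3 bile duct epithelial products 1 was called lower, with sums of 251 to 721 TPM in L30 and 701 to 852 TPM in L20. On summed counts the bile duct call was lost and 1 hepatocyte product was called lower. Of the 3 mesenchymal products edgeR called 0, while 2 had an unadjusted p of at most 0.05, DESeq2 called 1 and limma called 2. Their sums were 1121 to 3214 TPM in L30 and 2604 to 5506 TPM in L20. For the other lists, DESeq2 called 3 erythroid, 3 leukocyte, 2 endothelial, 1 hepatocyte and 1 bile duct product. Limma called 3, 4, 2, 2 and 1 of them in the same order. An unadjusted edgeR p of at most 0.05 was also reached by 3, 4, 2, 2 and 1. Of all 236 tested miRNAs, 92 had an unadjusted edgeR p of at most 0.05, while DESeq2 called 75 and limma called 78. Relative to the counted miRNA reads, the hepatocyte, bile duct and mesenchymal sums overlapped between the ages. No listed marker was at 0 in all libraries. The part of these cells in the lower level of the cluster was not tested.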

How the data were processed

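Liver small RNA of 3 L30 and 3 L20 hens was sequenced in single reads. The authors filtered the reads with the Fastx toolkit, matched the clean ones to miRBase in CLC Genomics Workbench, tolerating a few mismatches and altered ends, and deposited unnormalized read counts per mature miRNA. The deposited TPM column holds each count divided by the raw reads of its library. TPM used here was instead calculated from counts and the study's clean read numbers. For the study's own alignment, no genome build is given in the sources used here.

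The count test was edgeR 4.0.16 (glmQLFit, robust, and glmQLFTest) under R 4.3.3, taking clean reads as library sizes. Rows were first filtered with filterByExpr, at a minimum count of 10, which need not be reached in every library, and 15 reads in all. Log2 ratios of 5p to 3p reads, with 0.5 added, were tested with limma 3.58.1 over hairpins with a mean of at least 5 reads per arm. Adjusted p values follow Benjamini and Hochberg, with a threshold of 0.05. Ratios between miRNAs used exact permutation tests over the 20 regroupings. Alternatives were other scalings and filters, DESeq2 1.42.0, limma on log2(TPM + 1), Fisher's exact test, the omission of single libraries, and a block for the replicate number. The edgeR and limma steps were tested on simulated data. Figures were drawn with matplotlib 3.10.9.

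Deviations of same-numbered libraries from their age means correlated at 0.119, 0.171 and 0.188 across the tested miRNAs, and at −0.048, 0.222 and 0.167 on summed counts. The main tests did not use the numbers, which come from the library names. Only the alternatives with a block treated them as pairing the libraries, on the ground of the first 3 values alone. This ground does not hold on summed counts, and the hens differ.

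Named were the rows of the cluster and of miR-17-92 and the 5 other miRNAs whose ratio to miR-20b-5p varied least. A further part of the rule, miRNAs with the seed of a member, was not used here. The members and lists were chosen with earlier results of these data known.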

Additional observations from a re-analysis of the deposited data

How the results depend on the processing

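Over the alternatives that kept all 6 libraries, miR-106-5p and miR-20b-5p were called lower in L30 in 11 of 11, with log2 fold changes from −2.46 to −1.40 and from −2.24 to −1.19. MiR-18b-5p was called in 9 of 11, the exceptions being upper quartile factors and no filter on low counts (edgeR adjusted p = 0.059). The number of members called stayed at 3, except for 2 under these settings and 5 with Fisher's exact test on pooled counts, which ignores the spread between hens. That test called 205 of all tested miRNAs. With the replicate number as a block, 90 were called in place of 58, and the block changed no call of a member or of the arm ratio of miR-106 or miR-20b. The ratios between miRNAs could not pass the threshold with the block or without it, their smallest possible p being 0.25 and 0.1. With 1 library left out, from 0 to 4 members and from 6 to 102 of all tested miRNAs were called on clean reads, and from 2 to 3 members and from 32 to 67 of all on summed counts (33 without L20-2). The log2 fold change of miR-106-3p turned to 0.12 under upper quartile factors and to 0.039 on summed counts without L30-2. It spanned −1.42 to −0.52 without 1 library on clean reads and −0.29 to 0.039 on summed counts. The arm balance was called for 1 hairpin of the cluster, and for 2 where a mean of 1 read per arm was enough. Without 1 library, the log2 difference of the ratio of miR-18b-5p to miR-20b-5p ranged from −0.078 to 0.43 and that of miR-20b-5p to miR-20a-5p from −0.062 to 0.21. The second turned to −0.0042 without L30-1 and to −0.062 without L30-3. That of miR-106-5p to miR-20b-5p ranged from −0.43 to −0.031 and that of miR-18b-5p to miR-18a-5p from −0.47 to −0.12. The 4 ratios other than those of miR-18b-5p to miR-20b-5p and miR-20b-5p to miR-20a-5p kept their sign in every alternative run. The low reads of miR-18b-3p and miR-20b-3p limit what can be said of their hairpins. The causes of these changes were not tested.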
